A study of Mus musculus with 4 samples.

Results

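Motile cilia are hair-like organelles that beat by the sliding of microtubules. Each one is built on an axoneme, a ring of doublet microtubules around a central pair. Dynein motors arranged as outer and inner arms drive the sliding, while radial spokes and the central apparatus coordinate it. In mammals these cilia line the airways, the brain ventricles and the oviduct, and the sperm tail holds the same axoneme; the lining of the colon does not carry them. Foxj1 is the forkhead transcription factor required to build them, together with factors of the RFX family.

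The motile cilia genes described here are the rows whose gene symbol stands on a list of 36 genes picked for their known roles. The list was made with earlier results of these data known. The files held 33 of the 36 symbols, out of 24421 genes in all. Dnah12, Wdr16 and Cdhr4 were skipped because no row carried these symbols. Wdr16 is an older name of Cfap52 in RefSeq, which is described with its own family in the closing observations. Most of the 33 stood at low levels: only 10 reached a mean of 1 FPKM over the libraries (fragments per kilobase of transcript, scaled to the mapped fragments of the library), and 19 were under 1 FPKM in every library.

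The data are poly(A) RNA-seq of 4 C57BL/6 mice, namely 2 that lacked Usp25 (Usp25-/-, numbers 826 and 850) and 2 that had it (Usp25+/+, numbers 139 and 140). The gene codes for a deubiquitinating enzyme, and the sources used here do not say which part of the gene Usp25-/- mice lack. By the labels all 4 were females of 8 weeks given 2.5% dextran sulfate sodium in drinking water, a polymer that damages the gut lining, for 5 days, followed by 2 days on water alone, and the tissue was colon. The comparison asks how the genotypes differ after the treatment that the labels give. The labelled treatment and age were not checked. No untreated mice were analysed here.

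The libraries went against their labels in tissue and sex. Of 21 listed markers of colon epithelium, 7 were at 0 in 826, 13 in 850, 7 in 139 and 13 in 140. The intestinal factor Cdx1 was at 0 in all 4 libraries and the colon mucin Muc2 did not exceed 0.193 FPKM, but 5 of the 21 (Car4, Lgals4, Krt20, Agr2 and Guca2a) reached a mean of 1 FPKM and are described below. The alveolar surfactant gene Sftpc stood between 339 and 2596 FPKM and the lung factor Nkx2-1 between 6.70 and 13.7 FPKM. The Y-linked Ddx3y stood between 12.7 and 30.3 FPKM and Xist did not exceed 0.110 FPKM. Library totals were 526652 to 565645 FPKM, and the read depth is unknown. The targeted gene itself, Usp25, had 2.65 and 1.71 FPKM in Usp25-/- animals 826 and 850, against 38.5 and 16.6 FPKM in Usp25+/+ animals 139 and 140. The values below are therefore those of the libraries as labelled by genotype, and are not taken as measurements of colon. In such bulk RNA, fewer ciliated cells and less RNA per ciliated cell cannot be told apart.

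Promoter sequence was at hand for 27 of the 33 genes, from RefSeq on GRCm38.p6. The 250 bases before each annotated start were searched on both strands for the core of the X-box, the element bound by RFX factors (GTTGCC, or GGCAAC on the other strand). It occurred before 13 of the 27 genes (48.1%), against 11.8% of all 27025 genes with such a sequence. A palindromic X-box pattern, GTTNCCNNGGNAAC, which can contain the core, occurred before 0 of the 27 (0.444% of all genes), and the forkhead motif TGTTTAC before 0 of the 27 (3.54% of all genes). Both were searched only as written, so forms with other letters at the fixed positions or another spacing were not counted. Shown are Tekt1, which carries the core on both strands close to its start, Ccdc153, the member with the highest mean level among those with a promoter sequence, and Efcab10, listed at 0 in both Usp25-/- libraries. The last 2 were chosen after their values were seen. Capitals mark the X-box core, and each sequence runs 5′ to 3′ towards the start.
Tekt1, chr11:72361883-72362132, minus strand: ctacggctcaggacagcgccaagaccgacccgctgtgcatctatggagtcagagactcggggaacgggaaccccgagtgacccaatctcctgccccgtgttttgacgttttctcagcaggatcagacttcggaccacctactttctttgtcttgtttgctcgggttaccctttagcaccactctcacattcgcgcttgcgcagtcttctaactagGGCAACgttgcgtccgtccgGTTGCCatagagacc
Ccdc153, chr9:44240427-44240676, plus strand: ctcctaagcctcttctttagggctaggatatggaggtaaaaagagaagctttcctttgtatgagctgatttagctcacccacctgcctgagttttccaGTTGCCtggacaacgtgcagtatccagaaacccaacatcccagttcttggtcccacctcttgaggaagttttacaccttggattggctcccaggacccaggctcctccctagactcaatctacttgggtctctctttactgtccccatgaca
Efcab10, chr12:33394604-33394853, plus strand: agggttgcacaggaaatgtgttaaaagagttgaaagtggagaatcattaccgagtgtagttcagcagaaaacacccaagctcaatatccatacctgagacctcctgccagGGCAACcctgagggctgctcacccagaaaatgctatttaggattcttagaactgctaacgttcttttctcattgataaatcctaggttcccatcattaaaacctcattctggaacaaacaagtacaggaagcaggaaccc
The cores began 35 and 15 bases before the start of Tekt1, 152 before that of Ccdc153 and 140 before that of Efcab10. Tekt1 has a second annotated start in RefSeq, whose 250 bases hold no core. A match is a stretch of letters, and binding was not measured.

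No motile cilia gene passed the test between the genotypes, and library 826 had the lowest value in 16 of the 33, more than any other library. Limma on log2(FPKM + 1) called 0 of the 10 tested members at an adjusted p of 0.05, and 0 of the 10 at an unadjusted p of 0.05. Over all 12011 genes tested it called 0% by adjusted p, and at an unadjusted p of 0.05 it called 2.11% as higher and 1.01% as lower in Usp25-/-. The 10 tested members had a median log2 fold change of -0.02, with 4 higher and 6 lower, beside a median of 0.03 over all genes tested. Of the 10, 1 had no overlap between genotypes and was higher in Usp25-/-, where 19.0% of all genes tested were higher and 14.7% lower without overlap. With 2 libraries against 2, the smallest p of an exact two-sided permutation test on 1 gene is 0.333. Usp25 itself did not pass, with a log2 fold change of -3.07 (SE 0.47), a limma unadjusted p of 0.00107 and a limma adjusted p of 0.960. A large change could therefore be missed, and the absence of calls does not show that the genotypes are alike.

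**Figure D1:**
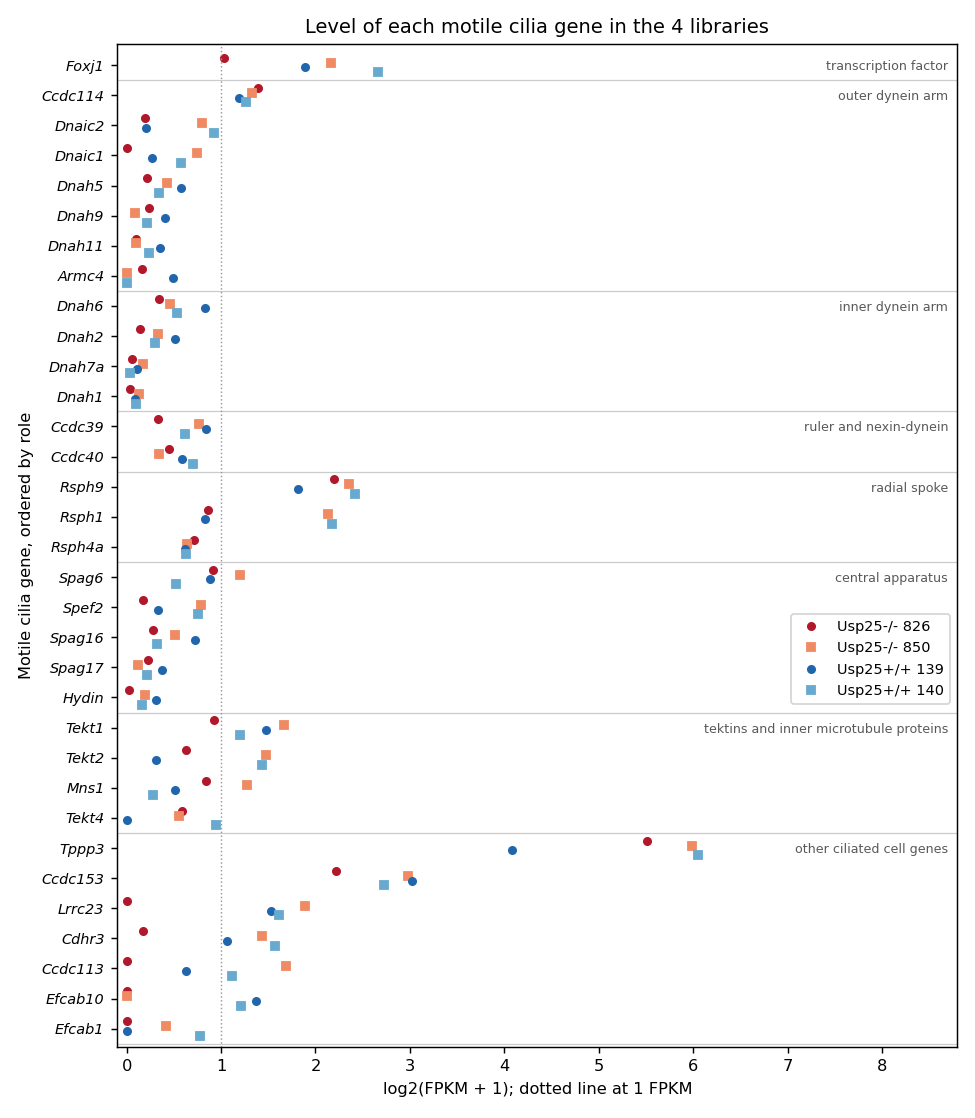
Each row is a motile cilia gene, grouped by role, and each point is 1 library (circles and squares, red for Usp25-/- and blue for Usp25+/+), on a log2(FPKM + 1) axis. The points of the genotypes are mixed in most rows, and the dark red circles of Usp25-/- 826 lie at the left end in 16 of the 33.

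Foxj1 (chromosome 11 from 116192018 to 116196713 on mm9) was listed at 1.04 and 3.50 FPKM in Usp25-/- animals 826 and 850, against 2.72 and 5.34 FPKM in Usp25+/+ animals 139 and 140. Library 850 lay between the Usp25+/+ libraries, so the genotypes overlapped, and 826 alone was low. The means were 2.27 ± 1.74 FPKM in Usp25-/- and 4.03 ± 1.86 FPKM in Usp25+/+ (SD, n = 2 each). The log2 fold change was -0.68 with a standard error (SE) of 0.52 and a limma adjusted p of 0.960, and it was -0.11 without 826 and -1.25 without 850.

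Among the outer dynein arm genes, which provide the main beating force, only the docking gene Ccdc114 reached a mean of 1 FPKM. It was listed at 1.63 and 1.51 FPKM in Usp25-/- animals 826 and 850, against 1.27 and 1.40 FPKM in Usp25+/+ animals 139 and 140. It was the 1 tested member whose genotypes did not overlap, with a log2 fold change of 0.14 (SE 0.33, adjusted p = 0.972 by limma). The heavy chain genes Dnah5, Dnah9 and Dnah11 and the intermediate chain genes Dnaic1 and Dnaic2 stayed under 1 FPKM in every library, as did Armc4, which also serves docking. Dnah11 was listed at 0.0731 and 0.0716 FPKM in Usp25-/- animals 826 and 850, against 0.279 and 0.181 FPKM in Usp25+/+ animals 139 and 140. The annotated Dnah11 overlaps Cdca7l on the opposite strand, and unstranded reads from the overlap cannot be told apart. The intermediate chains followed another order than Dnah11. Dnaic1 was at 0 and 0.682 FPKM in Usp25-/- animals 826 and 850, against 0.206 and 0.491 FPKM in Usp25+/+ animals 139 and 140. Dnaic2 was at 0.144 and 0.734 FPKM in Usp25-/- animals 826 and 850, against 0.152 and 0.906 FPKM in Usp25+/+ animals 139 and 140, so that each genotype held 1 low and 1 high library.

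The inner arm genes Dnah1, Dnah2, Dnah6 and Dnah7a and the ruler genes Ccdc39 and Ccdc40, which set the spacing of inner arms and nexin links along the axoneme, were under 1 FPKM in every library. Dnah6, the highest inner arm gene, was listed at 0.270 and 0.372 FPKM in Usp25-/- animals 826 and 850, against 0.782 and 0.449 FPKM in Usp25+/+ animals 139 and 140. Ccdc40 was listed at 0.361 and 0.270 FPKM in Usp25-/- animals 826 and 850, against 0.500 and 0.632 FPKM in Usp25+/+ animals 139 and 140. In these members both Usp25-/- libraries were below both Usp25+/+ libraries. Ccdc39 was listed at 0.254 and 0.704 FPKM in Usp25-/- animals 826 and 850, against 0.795 and 0.533 FPKM in Usp25+/+ animals 139 and 140, and there the genotypes overlapped. The annotated Ccdc39 overlaps Ttc14 on the opposite strand, which stood at 3.33 to 5.95 FPKM, and unstranded reads from the overlap cannot be told apart. Dnah7a has near-identical copies in the mouse genome that can share its reads, so its values (0.0232 to 0.124 FPKM) are uncertain.

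The radial spoke head genes were among the better detected members. Rsph9 was listed at 3.60 and 4.13 FPKM in Usp25-/- animals 826 and 850, against 2.51 and 4.36 FPKM in Usp25+/+ animals 139 and 140, a log2 fold change of 0.16 (SE 0.34, adjusted p = 0.968 by limma). The annotated gene overlaps Mrps18a on the opposite strand, which stood at 20.6 to 38.0 FPKM, and the unstranded reads of the pair cannot be told apart. Rsph1 was listed at 0.821 and 3.38 FPKM in Usp25-/- animals 826 and 850, against 0.776 and 3.52 FPKM in Usp25+/+ animals 139 and 140. The SD within a genotype was 1.81 FPKM in Usp25-/- and 1.94 FPKM in Usp25+/+ (n = 2 each), wider than the difference between the genotypes, and 826 and 139 were the low libraries. Rsph4a, the third spoke head gene, stood between 0.532 and 0.637 FPKM in all 4 libraries.

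The central apparatus genes Spag6, Spag16, Spag17, Spef2 and Hydin, needed for the regulation of the beat, all had means under 1 FPKM. Spag6 was listed at 0.883 and 1.29 FPKM in Usp25-/- animals 826 and 850, against 0.845 and 0.436 FPKM in Usp25+/+ animals 139 and 140, higher in both Usp25-/- libraries. It has a close paralog, Spag6l, listed at no more than 0.112 FPKM, and reads could be split between them. Hydin, a very large central apparatus protein, was listed at 0.0152 and 0.141 FPKM in Usp25-/- animals 826 and 850, against 0.242 and 0.122 FPKM in Usp25+/+ animals 139 and 140. Library 826 was the lowest in Hydin, Spag16 and Spef2.

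Tektins form filaments inside the doublet microtubules, and Mns1 is an inner doublet protein needed for outer arm docking. Tekt1 was listed at 0.899 and 2.18 FPKM in Usp25-/- animals 826 and 850, against 1.79 and 1.30 FPKM in Usp25+/+ animals 139 and 140, a log2 fold change of -0.04 (SE 0.41, adjusted p = 0.996 by limma). Tekt2 was listed at 0.550 and 1.78 FPKM in Usp25-/- animals 826 and 850, against 0.243 and 1.71 FPKM in Usp25+/+ animals 139 and 140, a log2 fold change of 0.18 (SE 0.56, adjusted p = 0.979 by limma). As in Rsph1, 826 and 139 were the low libraries of Tekt2. Mns1 was listed at 0.786 and 1.41 FPKM in Usp25-/- animals 826 and 850, against 0.421 and 0.212 FPKM in Usp25+/+ animals 139 and 140, higher in both Usp25-/- libraries. Tekt4 was at 0 in 139 and between 0.466 and 0.928 FPKM in the other libraries.

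The remaining ciliated cell genes held the highest values and the deepest lows of 826. Tppp3, which promotes tubulin polymerisation and is not restricted to ciliated cells, stood at 44.5 and 62.6 FPKM in Usp25-/- animals 826 and 850, against 15.9 and 65.1 FPKM in Usp25+/+ animals 139 and 140. Library 139 was low, and the other Usp25+/+ library was the highest of all. The log2 fold change of 0.69 (SE 0.69, adjusted p = 0.960 by limma) became -0.30 without 139 and 1.67 without 140. Ccdc153 (chromosome 9 from 44048760 to 44055389 on mm9), a coiled-coil gene of ciliated cells, stood at 3.64 and 6.90 FPKM in Usp25-/- animals 826 and 850, against 7.10 and 5.63 FPKM in Usp25+/+ animals 139 and 140. Lrrc23, a radial spoke gene, was at 0 and 2.70 FPKM in Usp25-/- animals 826 and 850, against 1.90 and 2.06 FPKM in Usp25+/+ animals 139 and 140. Cdhr3, a cadherin of ciliated airway cells that in humans serves rhinovirus C as receptor, was at 0.128 and 1.69 FPKM in Usp25-/- animals 826 and 850, against 1.09 and 1.98 FPKM in Usp25+/+ animals 139 and 140. In these 3 genes 826 lay below the other libraries while 850 was at or near the level of the Usp25+/+ libraries. The log2 fold changes were -0.28 (SE 0.37) for Ccdc153, -0.63 (SE 0.67) for Lrrc23 and -0.52 (SE 0.54) for Cdhr3, each with a limma adjusted p of 0.960. Ccdc113, a coiled-coil gene of the axoneme, was at 0 and 2.22 FPKM in Usp25-/- animals 826 and 850, against 0.546 and 1.17 FPKM in Usp25+/+ animals 139 and 140.

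Efcab10, an EF-hand gene, was listed at 0 in both Usp25-/- libraries, against 1.58 and 1.32 FPKM in Usp25+/+ animals 139 and 140. It lies on chromosome 12 from 34079719 to 34086134 on mm9, with no other annotated gene across it. Its mean was under the filter of 1 FPKM. In the fit without a filter its limma unadjusted p was 0.00164 and its adjusted p 0.686 over 24421 genes. Efcab1, another EF-hand gene, was at 0 and 0.339 FPKM in Usp25-/- animals 826 and 850, against 0 and 0.716 FPKM in Usp25+/+ animals 139 and 140, with a 0 in each genotype.

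Counted without the filter, 8 of the 33 listed members had no overlap between genotypes. Ccdc114, Rsph4a, Spag6 and Mns1 were higher in Usp25-/- (4 of 33, where 11.3% of all listed genes were higher without overlap). Dnah11, Dnah6, Ccdc40 and Efcab10 were lower (4 of 33, where 11.4% of all listed genes were lower). These shares are close to those over all genes. The fit without a filter gave a median log2 fold change of -0.12 over the 33, with 24 lower and 9 higher. Over all 24421 genes the median was 0, with 12209 lower, 9577 higher and 2635 at exactly 0. Limma called 0 of the 33 at an adjusted p of 0.05 and 2, Efcab10 and Dnah11, at an unadjusted p of 0.05. Both were lower in Usp25-/-, as were 1.97% of all genes at that threshold in the same fit, with 1.71% higher.

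**Figure D2:**
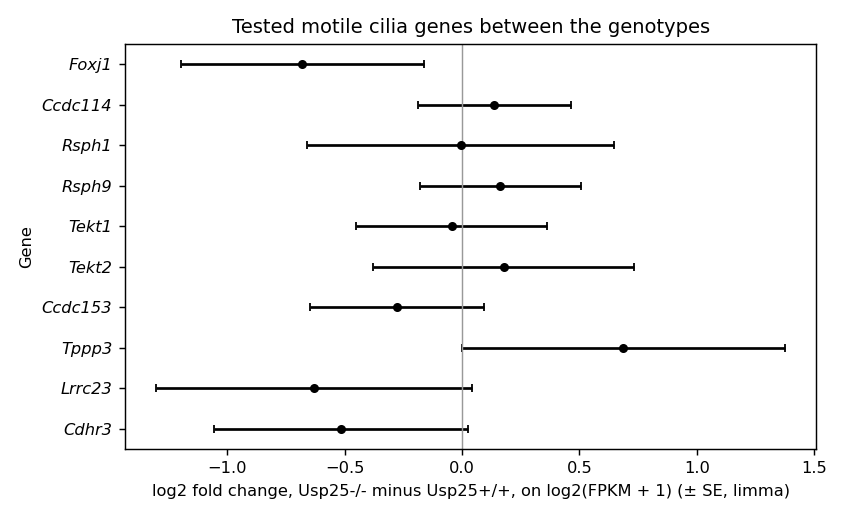
Points are the log2 fold changes (Usp25-/- minus Usp25+/+, on log2(FPKM + 1)) of the 10 tested motile cilia genes, with bars of 1 standard error from limma. They run from -0.68 for Foxj1 to 0.69 for Tppp3, and none passed the threshold.

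Library 826 held the lowest value in 16 of the 33 members (48.5%), against 16.0% of all listed genes and 24.3% of the genes tested. It held the highest value in 2 members. The other libraries were lowest in 4 members (850), 7 (139) and 3 (140), and 3 members had a shared lowest value of 0. Of the 33, 28 were above 0 in 826, 31 in 850, 31 in 139 and 32 in 140, while over all genes 826 had more genes above 0 (17242) than 850 (15805) or 140 (15603). The member median was 0.177 and 0.682 FPKM in Usp25-/- animals 826 and 850, and 0.500 and 0.632 FPKM in Usp25+/+ animals 139 and 140. Without Tppp3 it was 0.175 and 0.621 FPKM in 826 and 850, and 0.493 and 0.587 FPKM in 139 and 140. The member sum was 61.9 and 102 FPKM in 826 and 850, and 45.1 and 103 FPKM in 139 and 140, lowest in 139. Without Tppp3 the sum was 17.4 and 39.2 FPKM in 826 and 850, and 29.3 and 37.8 FPKM in 139 and 140, lowest in 826. Set against 850, the other Usp25-/- library, 826 was lower in 24 members, higher in 8 and level in 1, with a median difference of -0.23 on log2(FPKM + 1), whereas 139 was lower than 140 in 17 members and higher in 16, with a median difference of -0.01. Libraries 139 and 140 thus differed in both directions, and the SD of FPKM was larger in Usp25-/- for 14 members and in Usp25+/+ for 19. Among the 10 tested members 826 and 139 were each lowest in 5, and 139 was lowest in 39.2% of all genes tested. No test was made of these orders of libraries.

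**Figure D3:**
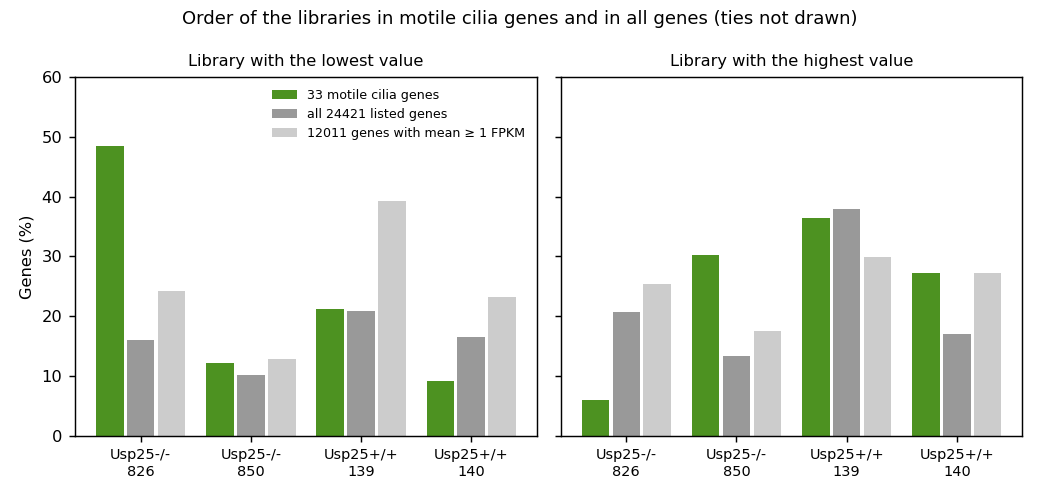
Bars give the percent of genes whose lowest (left) or highest (right) value lay in each library, for the 33 motile cilia genes, all 24421 listed genes and the 12011 genes tested; shared values are not drawn. Usp25-/- 826 was lowest in 48.5% of the motile cilia genes and in 16.0% of all listed genes.

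The direction of the group between the genotypes depended on the library left out. The median log2 fold change of the tested members was -0.64 without 850 and -0.30 without 139, but 0.31 without 826 and 0.17 without 140. The median of 0.31 without 826 came from 11 tested members, 10 of them higher. Members without overlap between the genotypes moved the same way: 5 of 11 were higher without 826 (30.1% of all genes tested) and 5 of 9 without 140 (45.6%), whereas 5 of 9 were lower without 850 (29.1%) and 5 of 11 without 139 (37.0%). In the opposite direction there were 0 or 1 members in each fit, where 22.7% to 35.8% of all genes lay. With 1 library against 2, such gaps are common over all genes.

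Other cilium genes gave the same picture in part. Of 50 listed further axoneme genes, 23 were tested and 11 of these were higher and 12 lower, with 0 called by limma (0 also at an unadjusted p of 0.05) and a median log2 fold change of -0.04. Without a filter 33 of the 50 were lower, 16 higher and 1 level, with a median of -0.12. Without overlap 12 of the 50 were lower and 4 higher, where 11.4% and 11.3% of all listed genes were. Limma then called 0 by adjusted p. At an unadjusted p of 0.05 it called 2, Ccdc65 and Spag8, both lower in Usp25-/-, as were 1.97% of all genes in that fit. The genes added in that fit had means under 1 FPKM. Library 826 was the lowest in 20 of the 50. Cetn2, a centrin of basal bodies and centrosomes, was listed at 47.4 and 32.2 FPKM in Usp25-/- animals 826 and 850, against 23.6 and 28.7 FPKM in Usp25+/+ animals 139 and 140. Dnal4, a dynein light chain gene, was listed at 8.54 and 9.65 FPKM in Usp25-/- animals 826 and 850, against 4.10 and 15.0 FPKM in Usp25+/+ animals 139 and 140. In both, 139 and not 826 was the lowest library. Pifo, a gene of ciliary disassembly, was at 0 and 1.98 FPKM in Usp25-/- animals 826 and 850, against 2.07 and 2.43 FPKM in Usp25+/+ animals 139 and 140. Fam183b was at 0 and 2.67 FPKM in Usp25-/- animals 826 and 850, against 1.12 and 5.63 FPKM in Usp25+/+ animals 139 and 140.

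Regulators that act before the axoneme is built were mostly at low levels. Their median was 0.437 and 0.634 FPKM in Usp25-/- animals 826 and 850, against 0.914 and 0.509 FPKM in Usp25+/+ animals 139 and 140. Each library had 6 of them at 1 FPKM or more. Of 15 listed multiciliation regulators, 6 were tested, 5 of them higher and 1 lower, with 0 called by limma (0 also unadjusted) and a median of 0.07. Mcidas, which starts the multiciliated fate, was at 0.193 FPKM in 826, with 0 in each of the other 3 libraries. Ccno, a cyclin-like gene needed for the many basal bodies, differed by -0.60 (SE 0.42) in log2 fold change, with its lowest value, 1.54 FPKM, in 826 and its highest, 4.88 FPKM, in 139. Rfx2 was listed at 2.70 and 2.34 FPKM in Usp25-/- animals 826 and 850, against 0.914 and 2.29 FPKM in Usp25+/+ animals 139 and 140. The cell cycle factors E2f4 and E2f5, which also take part in multiciliation, differed by 0.08 (SE 0.34) and 0.23 (SE 0.40) in log2 fold change.

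Dynein assembly factors and cilium transport genes, several of which most cells use, did not pass the test either. Of 12 listed assembly factors, 5 were tested, 4 higher and 1 lower, with 0 called by limma (0 also unadjusted) and a median of 0.24. The most abundant, Ruvbl1 and Ruvbl2, are general chaperone ATPases and differed by 0.24 (SE 0.31) and 0.18 (SE 0.31) in log2 fold change, and Dnaaf2 and Rpap3 had 0.34 (SE 0.49) and 0.30 (SE 0.32). Of 36 genes of intraflagellar transport and the BBSome, which serve primary cilia as well, 32 were tested, 17 higher and 15 lower, with 0 called by limma (0 also unadjusted) and a median of 0.03. Ift20 and Ift43, the most abundant, differed by 0.54 (SE 0.35) and 0.28 (SE 0.33) in log2 fold change, and Ift80 and Ttc30b had -0.61 (SE 0.55) and -0.57 (SE 0.32). The mean log2(FPKM + 1) of the 36 was 2.11 and 2.23 in Usp25-/- animals 826 and 850, and 2.09 and 2.22 in Usp25+/+ animals 139 and 140, against 0.63 and 1.07 in 826 and 850, and 0.86 and 1.05 in 139 and 140, for the 33 motile cilia genes.

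Markers of the cells that could carry or surround motile cilia differed between libraries. The 12 airway secretory markers summed to 478 and 990 FPKM in Usp25-/- animals 826 and 850, against 3024 and 855 FPKM in Usp25+/+ animals 139 and 140, and 7 of the 12 were lowest in 826. Scgb1a1, the secretoglobin of club cells, stood at 219 and 567 FPKM in Usp25-/- animals 826 and 850, against 741 and 462 FPKM in Usp25+/+ animals 139 and 140. Bpifa1, an airway antimicrobial protein, reached 1653 FPKM in 139 and stood between 24.8 and 32.5 FPKM in the other libraries. The part of airway content in the low values of 826 was not tested. The 10 alveolar type 2 markers summed to 5212 and 4864 FPKM in 826 and 850, against 1649 and 4112 FPKM in 139 and 140, led by Sftpb and Sftpc, and the 10 alveolar type 1 markers, led by Gprc5a and Aqp5, to 979 and 534 FPKM in 826 and 850, against 350 and 467 FPKM in 139 and 140. These sums were lowest in 139. It was also the lowest library in 6 of the 10 type 2 markers and 6 of the 10 type 1 markers. Library 826 was lowest in 3 type 2 markers and 1 type 1 marker. The sums rest mostly on a few genes, Sftpb and Gprc5a being the highest in 826. The median of the type 2 markers was 58.2 and 100.0 FPKM in 826 and 850, against 68.1 and 92.7 FPKM in 139 and 140, lowest in 826. The median of the type 1 markers was 58.6 and 37.9 FPKM in 826 and 850, against 33.3 and 35.7 FPKM in 139 and 140, highest in 826.

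The 12 neutrophil markers, led by S100a8 and S100a9, summed to 2290 and 1399 FPKM in Usp25-/- animals 826 and 850, against 48275 and 872 FPKM in Usp25+/+ animals 139 and 140. FPKM is a share of the library, so abundant genes lower the rest, and their part in the low Tppp3, Rsph1 and Tekt2 of 139 was not tested. The 7 basal cell markers, with Aqp3 and Krt14 highest, summed to 27.9 and 6.47 FPKM in 826 and 850, against 57.9 and 2.42 FPKM in 139 and 140. Aqp3 alone gave 24.7 FPKM of the sum in 826, where Krt5, Krt14 and Trp63 stood at 0.191, 1.33 and 0.277 FPKM. In 139 Krt5, Krt14 and Trp63 stood at 19.0, 25.6 and 1.12 FPKM. Library 139 was the highest in 5 of the 7 markers and 826 in 1. The 21 colon markers summed to 445 and 431 FPKM in 826 and 850, against 228 and 431 FPKM in 139 and 140, mostly through Car4, which lung endothelium also makes. Lgals4 was next, at 70.6 and 28.8 FPKM in 826 and 850, against 7.04 and 9.83 FPKM in 139 and 140. The epithelial keratin gene Krt20 stood at 52.4 and 7.35 FPKM in 826 and 850, against 4.31 and 3.11 FPKM in 139 and 140. Guca2a, which encodes guanylin, stood at 16.6 and 3.89 FPKM in 826 and 850, against 0.341 and 0.868 FPKM in 139 and 140. Agr2, a gene of mucus-producing cells in airway as well as gut, stood between 18.6 and 24.4 FPKM in all 4 libraries. All 5 tested colon markers had a positive log2 fold change, with a median of 2.18. Over all 21 in the fit without a filter, 10 were higher, 6 lower and 5 level, with a median of 0. Guca2a passed the filter only through Usp25-/-, with means of 10.2 FPKM in Usp25-/- and 0.60 FPKM in Usp25+/+. Limma called 0 of the 5 at an adjusted p of 0.05 and 2, Lgals4 and Guca2a, at an unadjusted p of 0.05. Over all genes tested, 2.11% were called higher in Usp25-/- at that unadjusted threshold. Lgals4, Krt20 and Guca2a were highest in 826, which held the lowest value in 16 of the 33 motile cilia genes. Their part in that was not tested.

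Sperm and oviduct markers were at or near 0, whereas several on the list for ependyma and choroid plexus were not. None of 15 sperm-specific markers reached 1 FPKM, with Spata18 and Smcp highest, and Prm1, Prm2, Tnp1 and Tnp2, the nuclear proteins of sperm, were at 0 in all 4 libraries. The oviduct glycoprotein gene Ovgp1 stood between 0.247 and 0.406 FPKM, and Wt1 reached 1.49 FPKM in 850. The 10 ependyma and choroid plexus markers had a mean log2(FPKM + 1) of 1.28 and 1.13 in Usp25-/- animals 826 and 850, against 1.40 and 0.96 in Usp25+/+ animals 139 and 140. Enpp2 (4.12 to 18.2 FPKM), Kcne2 (5.21 to 12.7 FPKM) and the myelin gene Mbp (7.26 to 8.04 FPKM) were the highest, and the water channel gene Aqp4 reached 6.51 FPKM in 139. The factors Otx2 and Olig1 and the glial filament gene Gfap did not exceed 0.321 FPKM. The choroid plexus gene Ttr was at 1.76 and 0 FPKM in Usp25-/- animals 826 and 850, against 0.486 and 0 FPKM in Usp25+/+ animals 139 and 140.

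**Figure D4:**
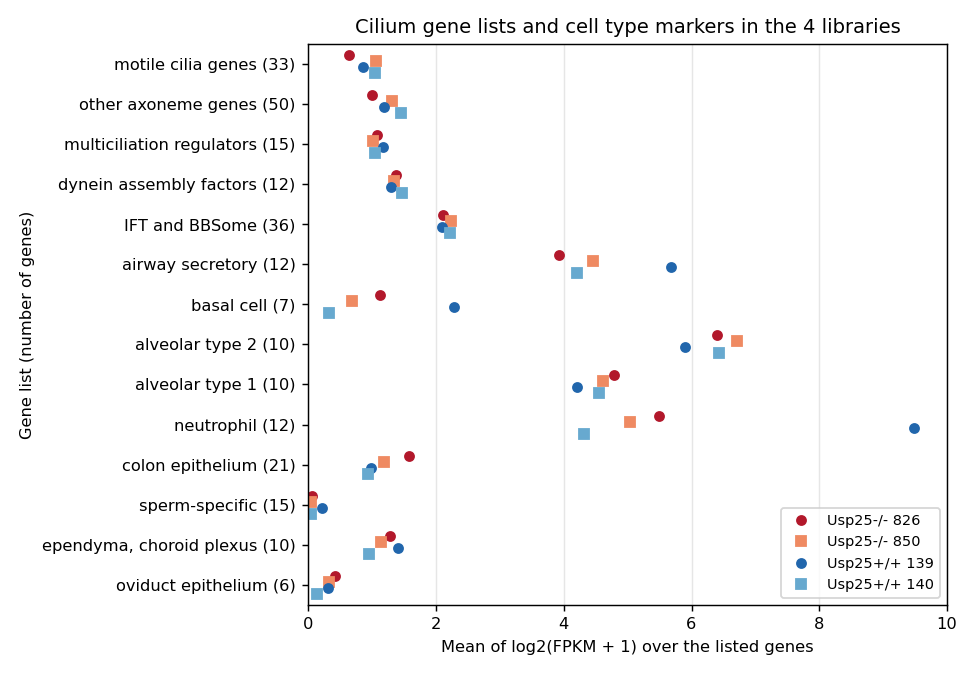
Each row is a gene list with its number of listed genes, and each point the mean log2(FPKM + 1) of the list in 1 library. The motile cilia genes lie at 0.63 in Usp25-/- 826 and between 0.86 and 1.07 in the other libraries, and the sperm and oviduct lists lie under 0.5.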

How the data were processed

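The libraries, per the labels' protocols, were poly(A)-selected, unstranded and read from both ends, so a read cannot be assigned to one of 2 overlapping genes by strand. Cutadapt, TopHat2 2.1.1, Cufflinks and mm9 appear in the submitters' processing notes. The sources used here give no annotation, filters or scaling. The deposited values are taken as FPKM because Cufflinks is named, the values are decimals and the library totals differ; no header or label states the unit. Whole reads were not recovered, so depth is unknown and no counting interval is given.

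Genotypes were tested with limma 3.58.1 (R 4.3.3; lmFit, eBayes with trend, two-sided, 2 residual degrees of freedom) on log2(FPKM + 1), a scale that understates the change of low genes. The test took the 12011 of 24421 genes whose mean reached 1 FPKM, with Benjamini-Hochberg adjustment over all of them and a threshold of 0.05. The labels name separate animals, and their numbers are not shared between genotypes, so no pairing was used. The fit was run on simulated normal data with the variances fitted here, as a check of the code only. Alternatives were another pseudocount, filters, scalings, a variance model and leaving out each library.

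The members, lists and tests were chosen with earlier results of these data known. FPKM in every library was to be given for Foxj1, for the highest and the most changed member of each role, and for the 3 members with the smallest p; further members were added after their values were seen. Of other cilium lists, the 2 highest and 2 most changed tested genes were named, and of marker lists the 2 highest, with others added as defining markers.

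Positions are from GENCODE vM1 (NCBIM37, that is mm9) for 32 of 33 members, older symbols being matched through RefSeq. Spag6 was left out because the annotations place it differently. An annotated protein-coding gene overlaps 4 members (Ccdc39, Dnah11, Rsph9 and Spag17). Promoters came from RefSeq on GRCm38.p6, another build than mm9.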

Additional observations from a re-analysis of the deposited data

How the results depend on the processing

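Under each of the 10 alternatives, limma called 0 motile cilia genes and 0 genes overall at an adjusted p of 0.05. At an unadjusted p of 0.05, where 375 genes and 0 members were called, the alternatives gave 103 to 2577 genes and 0 to 2 members. With no filter and with a filter at a mean of 0.1 FPKM, 4 members were higher and 4 lower without overlap in place of 1 and 0, because more members were counted; over all genes the shares were 11.3% and 11.4% with no filter and 15.0% and 14.4% with a filter at 0.1. Leaving out a library gave 1 to 5 of 9 to 11 members higher without overlap and 0 to 5 lower, where 30.1% to 45.6% of all genes were higher and 22.7% to 37.0% lower. The median log2 fold change of the tested members, -0.02, ranged from -0.64 to 0.31 in the same fits. Of the 10 tested members, Foxj1 (-1.25 to -0.11) and Ccdc114 (0.10 to 0.18) kept their sign in each of these fits. The other 8 reversed: Rsph9 ranged from -0.14 to 0.47, Tekt1 from -0.42 to 0.33, Tekt2 from -0.39 to 0.60, Tppp3 from -0.30 to 1.67, Cdhr3 from -1.14 to 0.11, Rsph1 from -0.68 to 0.67, Ccdc153 from -0.66 to 0.11 and Lrrc23 from -1.57 to 0.31. The cause was not tested. Where 1 library remained in a genotype, its spread was taken to be that of the other genotype. Tekt2 gave no value without 140 or 850, and Cdhr3 none without 140, because their means were then under the filter. Of the 10, Rsph1 also changed sign with a pseudocount of 0.1 (0.0072, against -0.0050), and the other 9 kept theirs under the other pseudocount, filters, scalings and variance model. No paired analysis was possible because the genotypes share no animal numbers. With 2 libraries a genotype and most members under 1 FPKM, small changes would not be detectable. The log2 fold change of -3.07 in Usp25 did not pass the adjusted threshold either, so large changes could be missed as well.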

Other observations

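The Cfap genes, named for cilia and flagella associated proteins, were looked at after their values were seen. The files listed 17 of them, and 826 was the lowest library in 10 of the 17. Cfap52, the gene once called Wdr16 and a protein of the inner doublet wall, was listed at 0.0734 and 0.534 FPKM in Usp25-/- animals 826 and 850, against 0.761 and 2.55 FPKM in Usp25+/+ animals 139 and 140, lower in both Usp25-/- libraries. Cfap53, which takes part in outer arm docking, was listed at 0.276 and 1.59 FPKM in Usp25-/- animals 826 and 850, against 1.40 and 1.36 FPKM in Usp25+/+ animals 139 and 140, with 826 alone low. Cfap126 was listed at 6.94 and 2.72 FPKM in Usp25-/- animals 826 and 850, against 2.84 and 6.01 FPKM in Usp25+/+ animals 139 and 140, with 826 the highest. In 4 of the 17 the genotypes were apart, 1 higher (Cfap36) and 3 lower (Cfap46, Cfap52 and Cfap58) in Usp25-/-, where 11.3% and 11.4% of all listed genes did so. Of the 7 tested, 5 were higher and 2 lower; limma called 0 after adjustment, and 0 by unadjusted p, at 0.05.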
